A study of Mus musculus with 42 samples.

Results

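The sarcomere is the contractile unit of striated muscle, in which myosin thick filaments slide along actin thin filaments between Z-discs. The genes described here are 41 sarcomere and muscle contraction genes of the mouse, a list drawn up by function: myosin heavy and light chains, sarcomeric actins and troponins, titin and the proteins of the Z-disc and M-band, the membrane and calcium release apparatus, and enzymes or chaperones that serve the contractile fibre. They are 41 of 12573 genes with assigned reads in the C2C12 libraries. A read was counted for a gene when its site lay within the gene's span in mm9 or up to 4000 nt downstream on the same strand, short of the next gene. Myoblasts that leave the cell cycle and fuse into myotubes switch on these genes, first embryonic and later adult members of each family. Troponin C, I and T form the calcium switch of the thin filament, and calcium reaches it from the sarcoplasmic reticulum through the ryanodine receptor once the membrane has been depolarized.

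C2C12 is an established mouse myoblast line (strain label C57BL/6 in the sample descriptions) that forms myotubes in low-serum medium. It was examined here by 3′READS, a method that sequences the 3′ ends of poly(A)+ transcripts, so that each read stands for 1 transcript end at a polyadenylation site (PAS) and levels of different genes do not scale with transcript length. Total RNA came from untreated proliferating myoblasts (MB, 2 libraries) and untreated differentiated myotubes (MT, 2 libraries), and cytoplasmic RNA came from 4 MB and 4 MT libraries. In each cell state the cytoplasmic libraries were an untreated one at 0 h and one at 4 h (together NT), 1 library at the end of a 1 h treatment with 250 uM sodium arsenite (AS), an oxidative stressor, and 1 library after arsenite and 4 h of recovery (RC). The cultures are a single cell line, differentiated MT cultures can hold unfused cells, and nothing in the labels says that replicate libraries came from separate cultures, so p-values measure only the spread between these libraries. In cytoplasmic RNA that spread comes only from the NT libraries at 0 h and 4 h, so it includes any difference between these times. The labels give Myoblast as the source of all these samples, also of those titled as differentiated, and the titles were used for the cell state.

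Libraries held 1649925 to 4429624 PAS reads, of which 86.87 to 92.59% were assigned to genes. All 7 markers of differentiated myotubes had reads in every MT library, with a summed level of 9280 to 13544 CPM (reads of a gene scaled by effective library size), against 77.06 to 333.5 CPM in MB. Of these markers Ckm, Myh3, Acta1 and Tnnt3 are themselves members, so the sum is not independent of the list. The others in MT total RNA were Myog (1268 and 1398 CPM), Tmem8c (1500 and 1543 CPM) and Mb (561.1 and 557.6 CPM). None of these others was listed in MB. Proliferation markers summed to 1115 to 2013 CPM in MB and to 295.4 to 397.4 CPM in MT. Each library lists only sites with 5 or more reads, so a gene that is not listed could still hold up to 4 reads at a site. CPM were computed within the total and within the cytoplasmic libraries separately, so levels are not compared between these fractions. The total libraries are labelled replicates 2 and 3 and the cytoplasmic libraries replicate 1. Where a ratio or share differs between them, RNA fraction and replicate set cannot be told apart.

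The sequences at the 3′ ends are shown first, since each level below is the number of transcripts that end there. In 35 of 41 members the most used site had the poly(A) signal AATAAA within 45 bases upstream, in 3 it had ATTAAA only, and in 3 it had neither, while over the main sites of 10451 tested genes the shares were 67.99% and 16.08%. The following 30 bases of mm9, 5′ to 3′ on the transcribed strand and ending at the deposited site position, belong to the most abundant member of the thick filament group, the 2 most abundant thin filament members, and Ttn, Ldb3 and Myl1, whose reads were split between the end of the gene and an exonic site inside it, with the poly(A) signal in capitals where it lies in the window.
Mylpf, chr7:134357773-134357802, plus strand: cAATAAAactcaactggtctttgtttctta
Tnnc1, chr14:32024871-32024900, plus strand: gggaacgcaAATAAAtccttgctccccaga
Acta1, chr8:126415663-126415692, minus strand: aagccagccattctgttttgctccAATAAA
Ttn, end of the gene, chr2:76542037-76542066, minus strand: aaAATAAAgcaagctatctgcacctcaaaa
Ttn, internal site, chr2:76752004-76752033, minus strand: atccagcatgATTAAAcaccttcttggata
Ldb3, end of the gene, chr14:35339899-35339928, minus strand: tttagcaaAATAAAattcagaaaaaaaaaa
Ldb3, internal site, chr14:35374451-35374480, minus strand: ttgaAATAAAgaggatttgaaatgaacaaa
Myl1, end of the gene, chr1:66970877-66970906, minus strand: actacatcAATAAActtggtcagtctggaa
Myl1, internal site, chr1:66972640-66972669, minus strand: ctgaggacccaggcagatatgcagaattaa
The internal Ttn site carried ATTAAA where the end of the gene carried AATAAA, and neither hexamer was found within 45 bases upstream of the internal Myl1 site. The main site lay within 30 nt of the annotated gene end in 31 of 41 members.

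In MT the 41 genes took 4.981% and 4.854% of all assigned reads of total RNA, and in MB they took 0.04661% and 0.04111%. All 41 had reads in at least 1 MT library, and 38 had reads in all 6 MT libraries. Within total RNA and within cytoplasmic RNA, the lowest MT level of each of these 38 lay above its highest MB level. In MB, 8 members had reads in all 6 libraries, 7 in some and 26 in none. The 3 members below the filter on low counts were Myh2, an adult fast myosin heavy chain (3.329 and 1.824 CPM in the 2 MT total libraries), Trim63, a muscle ubiquitin ligase (1.303 CPM in 1 of them), and Xirp1, an actin-binding protein (1.563 CPM in 1 of them).

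**Figure D1:**
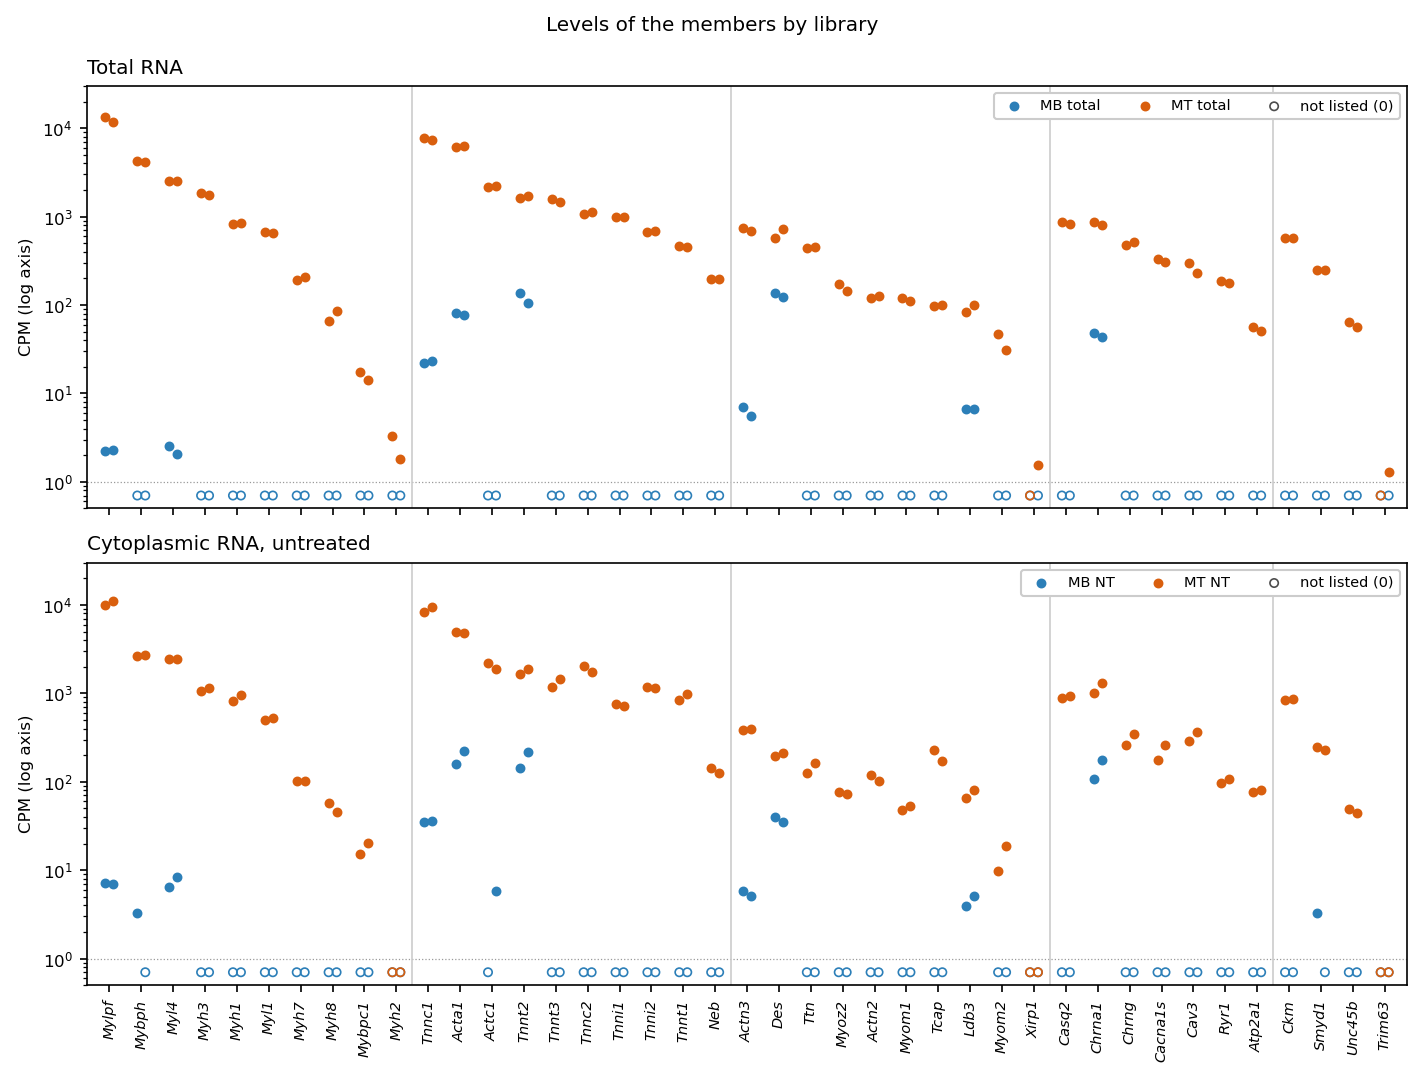
Level of each of the 41 members in every untreated library, in CPM on a log axis, with total RNA above and cytoplasmic RNA below; each filled point is 1 library, open circles mark libraries in which the gene is not listed, and vertical lines separate the role groups. MT points of the 38 members listed in all MT libraries lie above the MB points, and in total RNA Mylpf is highest at 11793 to 13346 CPM.

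Among thick filament genes, Mylpf, the fast regulatory light chain, was the most abundant member in total RNA, with 13346 and 11793 CPM in the 2 MT libraries against 2.244 and 2.296 CPM in MB. In the cytoplasm Mylpf stood at 10075 and 11168 CPM in MT NT and at 7.167 and 7.034 CPM in MB NT. Mybph, the myosin binding protein H, followed at 4258 and 4119 CPM in MT total RNA and was not listed in MB total RNA. The least abundant tested member of the group, Mybpc1, the slow myosin binding protein C, had 17.25 and 14.33 CPM in MT total RNA and was not listed in any MB library. Of the myosin heavy chains, embryonic Myh3 led with 1829 and 1758 CPM, above adult fast Myh1 with 830.5 and 857.0 CPM, slow Myh7 with 191.3 and 209.0 CPM and perinatal Myh8 with 65.98 and 84.68 CPM, and no neighbours in this order overlapped in MT total RNA. The Myh3 to Myh1 ratio of reads was 2.202 and 2.052 in MT total RNA but 1.292 and 1.208 in the untreated cytoplasmic MT libraries, so that Myh3 led in each of these 4 libraries by a different margin.

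Among thin filament genes, Tnnc1, the slow and cardiac troponin C, was highest with 7803 and 7352 CPM in MT total RNA against 22.12 and 23.47 CPM in MB. It exceeded Tnnc2, the fast form, 7.240 and 6.448 times in total RNA and 4.083 and 5.449 times in untreated cytoplasm. Acta1, skeletal alpha-actin, had 6179 and 6228 CPM in MT total RNA and exceeded Actc1, cardiac alpha-actin, 2.861 and 2.812 times. In MB total RNA Acta1 stood at 81.44 and 77.06 CPM, whereas Actc1 was not listed there. The order of the troponin I genes differed between the total and the cytoplasmic libraries. The ratio of fast Tnni2 to slow Tnni1 was 0.6688 and 0.6958 in total RNA and 1.570 and 1.572 in untreated cytoplasm. Cardiac-type Tnnt2 (1614 and 1701 CPM) and fast Tnnt3 (1562 and 1479 CPM) were closer to each other in total RNA than either was to slow Tnnt1 (470.6 and 454.7 CPM). The Tnnt3 to Tnnt1 ratio was 3.320 and 3.252 in total RNA and 1.415 and 1.465 in untreated cytoplasm, where the Tnnt2 to Tnnt3 ratio was 1.414 and 1.302. Neb, nebulin, the ruler of the thin filament, was the least abundant of the group with 196.1 and 194.4 CPM.

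Among titin, Z-disc and M-band genes, Actn3, the fast-fibre alpha-actinin, had the highest mean in MT total RNA with 744.2 and 693.6 CPM, and overlapped with Des, the intermediate filament protein desmin, with 572.0 and 728.5 CPM. In MB total RNA they stood at 7.053 and 5.613 CPM (Actn3) and at 138.2 and 123.5 CPM (Des). Ttn, the giant spring protein titin, had 444.6 and 447.6 CPM, and Myom2, an M-band protein, was lowest of those tested with 46.91 and 31.27 CPM. Among membrane and calcium genes, Casq2, which buffers calcium in the sarcoplasmic reticulum, had 874.4 and 820.0 CPM in MT total RNA and overlapped with Chrna1, the acetylcholine receptor alpha subunit, with 870.4 and 796.5 CPM. Atp2a1, the calcium pump of fast fibres, was lowest with 56.90 and 50.55 CPM. Of the energy and assembly genes, Ckm, muscle creatine kinase, had 578.4 and 580.0 CPM, and Unc45b, a myosin chaperone, had 64.77 and 55.76 CPM. Casq2, Atp2a1, Ckm and Unc45b were listed in no MB library. The membrane genes in between were Chrng, the embryonic acetylcholine receptor subunit (473.7 and 512.3 CPM in MT total RNA), Cacna1s, the voltage sensor of the T-tubule (334.7 and 306.2 CPM), Cav3, the muscle caveolin (298.4 and 228.8 CPM), and Ryr1, the calcium release channel (186.1 and 177.4 CPM).

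The comparison of MT with MB addresses how these genes change on differentiation. In total RNA all 38 members tested by edgeR's quasi-likelihood test were higher in MT, none lower, at an adjusted p (Benjamini-Hochberg over 10451 genes) below the 0.05 threshold, where 32.6% of all genes were called higher and 29.2% lower. For 29 of these 38 the reads that passed the low-count filter were all MT reads, which fixes their direction, so the count describes the list and supports nothing further. The other 9 had reads in both MB libraries and both MT libraries. Their fitted log2 changes had a median of 6.29 and were smallest for Des (2.32 ± 0.12 SE, adjusted p = 9.86e-11), Ldb3, a PDZ and LIM domain protein of the Z-disc (3.78 ± 0.20), and Tnnt2 (3.78 ± 0.12). Chrna1 changed by 4.17 ± 0.12, Acta1 by 6.29 ± 0.11, Actn3 by 6.84 ± 0.15, Tnnc1 by 8.37 ± 0.12, Myl4, the embryonic and atrial light chain, by 10.11 ± 0.16, and Mylpf by 12.41 ± 0.17.

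For members not listed in MB, the fitted change depends on the prior count and is no measure of size. In the cytoplasm Mybph had 2653 and 2732 CPM in MT NT, 2810 CPM in AS and 2189 CPM in RC, and in MB it was listed only in NT at 0 h (3.258 CPM). Actc1 had 2194 and 1875 CPM in MT NT, 2037 CPM in AS and 1799 CPM in RC, and up to 5.755 CPM in MB. Myh3 had 1056 and 1147 CPM in MT NT, 857.7 CPM in AS and 796.1 CPM in RC, and in MB it was listed only in RC (3.257 CPM). Each of these genes thus had its lowest MT cytoplasmic value in RC. Fitted values were largest for Mybph (16.86), Actc1 (15.92) and Myh3 (15.63). Set against 4 reads per MB library, the most that an unlisted site can hold (1.152 CPM on average), their main sites were at least 3635-fold, 1897-fold and 1552-fold higher in MT. Lower bounds of the tested unlisted members ran down to 13.71-fold for Mybpc1, and the median log2 change over the 38 members was 7.80 with such members at their bound and 12.42 as fitted, beside 0.04 over all genes.

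**Figure D2:**
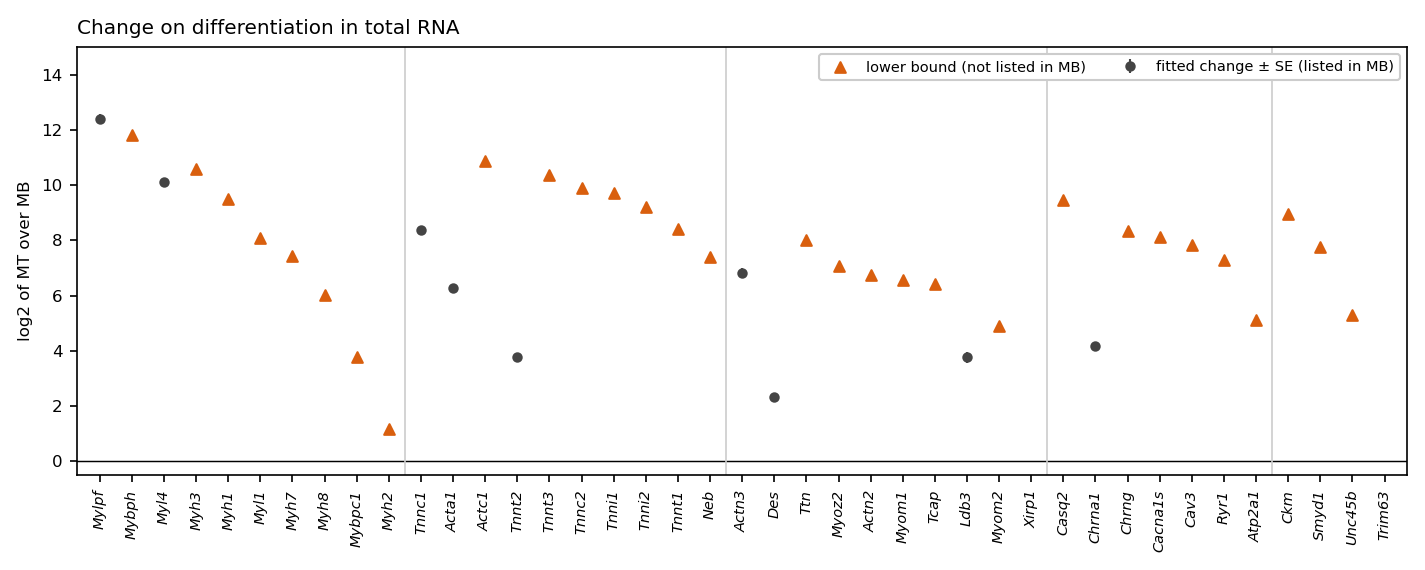
Log2 ratio of MT over MB in total RNA for each member; circles are fitted changes with their SE for the 9 members listed in both MB libraries (n = 2 libraries per state), and triangles are lower bounds for members not listed in MB, each against 4 reads per MB library. Circles range from 2.32 (Des) to 12.41 (Mylpf), and Xirp1 and Trim63 have no value.

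In cytoplasmic RNA all 38 tested members were also higher in MT NT than in MB NT (11.7% of 10329 genes were called higher and 8.00% lower). For 26 of them no reads were listed in either MB NT library, so their direction was fixed by the filter here too, and the 9 with reads in both had a median log2 change of 4.69. The smallest changes were again in members with reads in MB, with 2.44 ± 0.20 for Des, 3.04 ± 0.29 for Chrna1 and 3.30 ± 0.26 for Tnnt2 on the log2 scale (adjusted p = 0.00209, 0.00306 and 0.00182). Tnnt2 had 1665 and 1883 CPM in MT NT, 1056 CPM in AS and 1065 CPM in RC. Ldb3 had 65.45 and 80.93 CPM in MT NT, 80.89 CPM in AS and 59.91 CPM in RC, and 3.909 and 5.116 CPM in MB NT, 6.503 CPM in MB AS and no listed reads in MB RC. Des had 196.8 and 213.5 CPM in MT NT, 161.8 CPM in AS and 169.4 CPM in RC. MT and MB did not overlap for any of the 3. Myom2 and Mybpc1 passed with both NT libraries of MT but not when either was left out (adjusted p = 0.123 to 0.222), and Myh8 was lost without the 0 h library (adjusted p = 0.0555).

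In a second list of 56 other muscle genes, 42 were tested in total RNA and 41 were higher in MT. For 25 of the 42 no reads were listed in MB total RNA, which fixes their direction, and the 17 with reads in both MB libraries had a median log2 change of 2.65. The 5 most abundant in MT were Ankrd1, a titin-associated stress protein (6122 and 6120 CPM), Eno3, muscle enolase (2495 and 2687 CPM), Tpm2 (2498 and 2393 CPM) and Tpm1 (2389 and 2338 CPM), both tropomyosins, and Synpo2l, a Z-disc protein (888.0 and 989.3 CPM). The 1 gene called lower was Fbxo32, a ubiquitin ligase of muscle atrophy (log2 change -1.30 ± 0.24). In cytoplasmic RNA 38 of 44 were higher and none was called lower (11.7% and 8.00% of all genes). For 29 of the 44 no reads were listed in either MB NT library, which fixes their direction. The 13 with reads in both MB NT libraries had a median log2 change of 2.13. Of 13 non-muscle counterparts, 11 were tested in total RNA and 10 were lower (29.2% of all genes were called lower). Among them were Actb, cytoplasmic beta-actin (-2.36 ± 0.10), and Vim, the intermediate filament vimentin (-2.09 ± 0.09). The exception was Atp2a2, the calcium pump of slow muscle and most other cells (2.56 ± 0.11). In cytoplasmic RNA 12 counterparts were tested, of which 5 were called lower, 1 higher and 6 neither. Fibroblast or mesenchymal markers were higher in MT as well: 4 of 7 were tested in total RNA and all 4 were called higher (median 3.00), their summed level was 8983 and 9571 CPM in MT total RNA against 1231 and 1180 CPM in MB, and Pdgfra and Thy1 were at 0 in all libraries. Adipocyte markers had no reads. The part of mesenchymal or unfused cells in these results was not tested. In bulk RNA, fewer cells of a type and less RNA per cell cannot be told apart.

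The next comparison asks what arsenite did to these transcripts in MT cytoplasm, with 1 AS library against 2 NT libraries. Members moved in both directions: 14 of 38 lay above 0 and the median log2 change was -0.29 (all genes 0.00). In levels, 23 members lay below both NT libraries and 10 above both, against 38.1% and 39.1% of 9178 genes. Mylpf had 5966 CPM in AS against 10075 and 11168 CPM in NT, which is below both. Tnnc1 had 8753 CPM, between its NT values of 8219 and 9440. Acta1 had 6392 CPM, above 4911 and 4871. Actn2, the alpha-actinin of all sarcomeres, had 198.9 CPM against 120.2 and 102.0 CPM, and Actn3 had 578.2 CPM against 389.0 and 398.8 CPM. Acta1 and Actn2 were chosen after their values were seen. The highest thick filament member was thus lower than in both NT libraries, while both alpha-actinins and Acta1 were higher.

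No member passed the edgeR threshold after arsenite in MT (0 of 38 higher and 0 lower), where 0.0484% of genes were called higher and none lower. At an unadjusted p below 0.05, 2 members were higher and 5 lower (5.33% and 4.44% of genes), and DESeq2 called 1 member lower, with 0.215% of the genes it tested, namely Mylpf (log2 change -0.83, adjusted p = 0.0117 by DESeq2 and 0.393 by edgeR). For Actn2 the edgeR change was 0.84 ± 0.25 (adjusted p = 0.45). With only the 4 MT libraries fitted, Mylpf, Tnni2 and Tnnt2 were called lower and Actn2 higher (1.42% and 2.94% of genes), and the median over the members was -0.17 when the 4 h NT library was left out.

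After 4 h of recovery the levels of most members were lower than in untreated myotubes. The 41 genes took 2.932% of assigned cytoplasmic reads in RC, 4.120% in AS, and 4.866% and 5.130% in the NT libraries. Of the 38 members measured, 34 lay below both NT libraries and 4 above both, against 42.0% and 37.8% of 9178 genes. The median log2 change was -0.55 over the members and -0.04 over all genes. By role the median was -0.77 for membrane and calcium genes, -0.69 for the thick filament, -0.59 for the thin filament, -0.35 for energy and assembly genes and -0.29 for titin, Z-disc and M-band genes. Set against the 4 h NT library alone, the median was -0.63 and 34 of 38 were below 0, while the 4 h NT library lay a median of 0.08 above the 0 h one.

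Mylpf stood at 4750 CPM in RC against 10075 and 11168 CPM in NT, less than in AS. Tnnc1 stood at 5877 CPM against 8219 and 9440 CPM. Casq2 stood at 459.5 CPM against 880.6 and 927.0 CPM. Each of these RC values was below all 3 other MT cytoplasmic values. Of the other members given in every library, Neb had 122.8 CPM in RC against 142.0 and 125.9 CPM in NT, a small distance. Mybpc1 had 10.78 CPM against 15.32 and 20.33 CPM, and Myom2 had 6.034 CPM against 9.748 and 18.77 CPM. Atp2a1 had 56.46 CPM against 76.13 and 79.76 CPM, and Ckm had 644.4 CPM against 835.1 and 855.8 CPM. The largest fall, chosen after its values were seen, was in Cav3, with 89.65 CPM against 289.7 and 367.5 CPM, and Tcap, the Z-disc cap of titin, had 83.62 CPM against 225.6 and 173.2 CPM.

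The 4 members above both NT libraries were Unc45b (75.86 CPM in RC against 49.67 and 44.57), Ttn (204.3 against 126.3 and 164.6), Acta1 (5044 against 4911 and 4871) and Actn3 (406.9 against 389.0 and 398.8). The Ttn excess lay at its internal site, with 268 reads in RC against 72 and 145 in NT. At the end of the Ttn gene RC had fewer reads than either NT library (144 against 186 and 236). For Acta1 and Actn3 the excess was small, with fitted log2 changes of 0.04 ± 0.24 and 0.05 ± 0.20. Actc1 was below both NT libraries in RC (1799 CPM against 2194 and 1875), and the Acta1 to Actc1 ratio was 2.804 in RC, 3.137 in AS and 2.239 and 2.599 in NT.

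**Figure D3:**
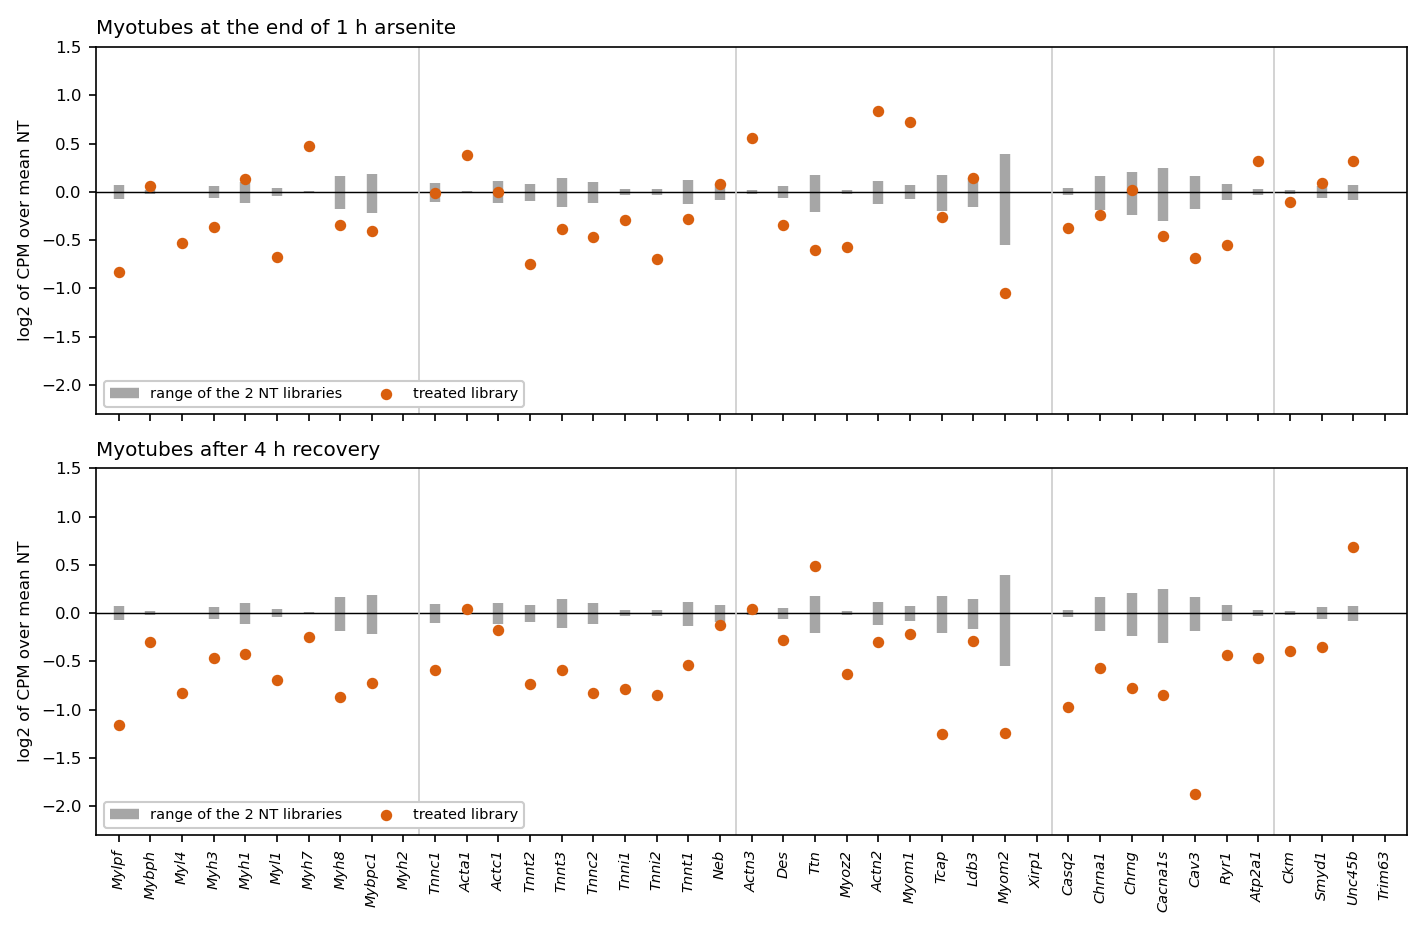
Log2 of the CPM in the AS library (above) and the RC library (below) over the mean of the 2 NT libraries, for each member in MT cytoplasm; grey bars span the NT libraries, and members without reads in these libraries have no point. In RC 34 of 38 points lie below the grey bars, the lowest being Cav3, and in AS 23 lie below and 10 above.

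By edgeR no member passed the threshold after recovery (0 of 38 in either direction), where 1.06% of genes were called higher and 0.281% lower. At an unadjusted p below 0.05, 0 members were higher and 11 lower (7.82% and 7.75% of genes). The closest were Mylpf (log2 change -1.16 ± 0.18, adjusted p = 0.0544) and Cav3 (-1.87 ± 0.30, adjusted p = 0.0755), and Tcap changed by -1.25 ± 0.30 (adjusted p = 0.164). The count of calls differed between fits. DESeq2 called 3 members lower (Mylpf, Cav3 and Myl4), with 0.336% of all genes called lower, and a fit to the 4 MT libraries alone, with 1 residual degree of freedom, called 14 lower, namely Mylpf, Myl1, Myl4, Tnnc1, Tnnc2, Tnni1, Tnni2, Tnnt2, Tnnt3, Tcap, Cav3, Casq2, Cacna1s and Chrng, with 5.90% of all genes called lower. Leaving out the 0 h or the 4 h MB NT library called 10 members lower, with 4.18% and 4.35% of all genes called lower.

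Between AS and RC no member passed (0.0387% of genes were called higher and none lower). At an unadjusted p below 0.05, 1 member was higher and 5 lower (5.93% and 6.61% of genes). The change from AS to RC lay above 0 in 5 of 38 members, with a median log2 of -0.34.

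Other muscle genes lay on the same side of NT in RC, with 9 of 44 above 0, a median of -0.48 and none past the threshold. Of the 5 most abundant ones, Synpo2l had 170.3 CPM against 290.6 and 428.9 CPM and Ankrd1 had 3925 CPM against 3502 and 4186 CPM. Non-muscle counterparts had 8 of 12 above 0 and a median of 0.20, none past the threshold. Fibroblast markers moved the other way from the members: their summed level was 3716 and 3672 CPM in NT, 6409 CPM in AS and 6468 CPM in RC, all 5 tested lay above 0 in both, and none passed. Proliferation markers summed to 397.4 and 362.0 CPM in NT, 337.0 CPM in AS and 326.7 CPM in RC. The part of other cell types in the lower member levels was not tested. The stress itself was visible in the same libraries, as 3 of 8 arsenite response genes passed in AS and 6 of 8 in RC.

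In MB most members were too rare to follow, and no member passed in AS or RC (0.0871% and 0.813% of genes called higher, none and 0.242% lower). At an unadjusted p below 0.05, 3 members were higher and 1 lower in AS (5.92% and 3.61% of genes), and 5 were higher and 1 lower in RC (10.1% and 11.4% of genes). Among the higher ones, Tnnt1 and Tnnt3 in AS and Tnnt1 and Myh3 in RC had no listed reads in MB NT. They had only 5 to 7 reads in the treated library. The lower one in RC, Ldb3, had no listed reads there. The 26 members with no reads in any MB library could not be called, so these counts describe no response of the list. Acta1 had 157.0 and 221.3 CPM in MB NT, 263.0 CPM in AS and 330.3 CPM in RC, with RC above both NT values. Tnnc1 had 35.18 and 35.81 CPM in NT, 29.67 CPM in AS and 54.07 CPM in RC. Des had 40.39 and 35.17 CPM in NT, 57.72 CPM in AS and 58.63 CPM in RC. Tnnt2 (141.4 and 218.7 CPM in NT, 192.8 CPM in RC) and Chrna1 (106.9 and 175.2 CPM in NT, 166.1 CPM in RC) stayed between their NT values in RC. The difference of response between MT and MB was tested as an interaction, and no gene passed in AS or RC. At an unadjusted p below 0.05, 0 members had a higher and 3 a lower response in MT for AS (2.17% and 3.5% of genes), and 1 and 4 for RC (5.13% and 3.61% of genes). Of these, Tnnt1 and Tnnt3 in AS and Tnnt1, Myh3 and Ldb3 in RC rest on MB libraries without listed reads. For the 26 members with no reads in any MB library the interaction could not be called in either direction.

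Most members ended at a single dominant site. The main site held at least 95% of the reads in 30 of 41 members and under 80% in 7, Myl1, Ttn, Ldb3, Atp2a1, Chrna1, Chrng and Unc45b. Shares are given with Wilson 95% intervals, which cover counting error only, and there was no test since AS and RC had 1 library each. In Ttn (gene ENSMUSG00000051747.7, chr2:76542037-76820604, minus strand), the internal site lies in an exon 209967 nt upstream of the gene end and 3 nt from the end of a shorter annotated transcript. Its share was 23.6% (21.5 to 25.9) and 18.6% (16.8 to 20.5) in MT total RNA, and 26.5% (21.6 to 32.0) and 34.4% (30.1 to 39.1) in MT NT cytoplasm. In AS it was 35.4% (29.8 to 41.3), and in RC it was 56.5% (52.0 to 60.9), above every other MT library without overlap of intervals. In reads, RC held 268 at the internal site and 144 at the end of the gene, against 72 and 186 in NT at 0 h and 145 and 236 in NT at 4 h. RC thus had more reads at the internal site than either NT library and fewer at the end of the gene.

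In Atp2a1 a site in an intron held 13.3% (9.17 to 18.9) and 15.98% (11.5 to 21.8) of reads in MT total RNA, and 36.6% (29.6 to 44.2) and 37.7% (31.4 to 44.6) in MT NT cytoplasm. For Myl4, Tnni1 and Ldb3 the main site over all C2C12 libraries together lay upstream of the last exon. It was 8538, 1077 and 34566 nt upstream of the gene end. These sites were at or near ends of annotated transcripts, 0, 3 and 12 nt from the nearest one.

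In Myl1, the fast essential light chain (chr1:66970869-66991978, minus strand), the internal site lies 1771 nt upstream of the gene end, at the end of another annotated transcript. It held 50.5% (48.4 to 52.5) and 50.9% (48.9 to 52.8) of reads in MT total RNA, and 37.7% (34.9 to 40.7) and 33.0% (30.5 to 35.5) in MT NT cytoplasm. In AS it held 51.4% (48.1 to 54.7), above both NT libraries, and in RC 35.2% (31.9 to 38.8), within their range. In Ldb3 (chr14:35339885-35401867, minus strand), the internal site lies 34566 nt upstream of the gene end and 12 nt from the end of a shorter transcript. It held 27.2% (22.3 to 32.7) and 33.4% (28.9 to 38.3) of reads in MT total RNA, 61.0% (52.8 to 68.7) and 75.8% (69.6 to 81.2) in MT NT cytoplasm, 70.7% (64.4 to 76.3) in AS and 61.9% (53.6 to 69.5) in RC. In MB total RNA it was not listed in either library, out of 21 and 26 Ldb3 reads, whereas the end of the gene held 76.2% (54.9 to 89.4) and 76.9% (58.0 to 89.0). The Ldb3 share thus differed between the total and the cytoplasmic MT libraries by more than it differed among the cytoplasmic ones.

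**Figure D4:**
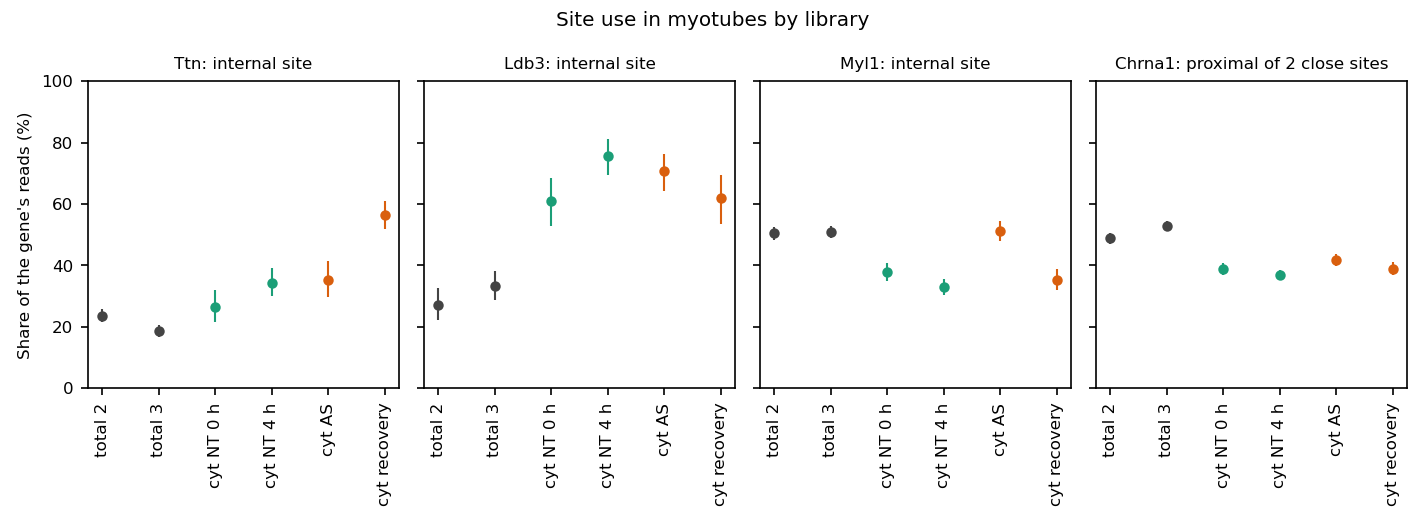
Share of the reads of Ttn, Ldb3, Myl1 and Chrna1 at 1 named site in each MT library, in percent with Wilson 95% intervals (counting error only); grey points are total RNA, green points are untreated cytoplasm and orange points are arsenite and 4 h recovery. The Ttn share reaches 56.5% in recovery, and the Myl1 share is 51.4% in arsenite against 37.7% and 33.0% in NT.

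Pairs of sites in the last exon or past the annotated gene end, called last-exon pairs, give the relative expression difference (RED). RED is the change in log2 of distal over proximal reads, where a negative value means relatively more proximal ends. With more than 5 reads at each site in each compared library, 9 members had a pair in AS and 8 in RC, with a median RED of -0.26 and -0.13, and the 4 h NT library against the 0 h one had a median RED of -0.06 over 11 pairs. Regardless of sign, the median size of RED between these NT libraries was 0.22. In AS RED was below 0 in every last-exon pair except Unc45b, and in RC in every one except Acta1 and Unc45b. Between the NT libraries it was above 0 in Acta1, Casq2, Chrna1 and Unc45b and below 0 in the rest. Taking the 2 most used sites wherever they lay in the gene was added once the values were known. Its medians were -0.01 over 17 members in AS, 0.28 over 15 in RC and 0.29 over 21 between the NT libraries. Those pairs include intronic and internal exonic sites, so they are a different measure. Chrna1 has 2 sites 121 nt apart, with a RED of -0.26 in AS (1123 proximal and 1411 distal reads, against 2080 and 3121 in NT) and -0.04 in RC. For Tnnt2, with sites 169 nt apart, RED was -0.66 in AS and -0.24 in RC, and for Unc45b, with sites 249 nt apart, it was 1.29 and 0.44. For Casq2, with sites 523 nt apart, RED was -0.90 in AS, -0.095 in RC and 0.22 between the NT libraries. The value for Ttn in RC (-1.26) was close to the difference between its NT libraries (-1.17).

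Promoter windows from RefSeq (GRCm38.p6, 250 bases before to 50 after each annotated start) were matched for 34 of 41 members. The E-box CAGCTG, which is its own reverse complement and a form bound by myogenic regulators, was in 47.1% of these genes and in 18.3% of 27025 genes with a window. TATAAA, on either strand, was in 32.4% and 15.7%, the MEF2 site in 14.7% and 3.7%, and the CArG box, the site of serum response factor, in 11.8% and 1.81%. The E-box form CACCTG, on either strand, was in 23.5% and 22.6%. A match is a description of these letters, and no factor was measured. Windows of 30 bases are shown for both alpha-actins and for Mylpf, Cav3 and Des, the first with the highest level, the second with the largest fall in RC and the third with the smallest change on differentiation, with the motif in capitals (CArG box for the actins, CAGCTG for the others) and base numbers counted from the start as 0.
Acta1, chr8:123894829-123894858, minus strand, -83 to -54: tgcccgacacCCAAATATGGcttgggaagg
Actc1, chr2:114052903-114052932, minus strand, -57 to -28: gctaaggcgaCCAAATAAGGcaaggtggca
Mylpf, chr7:127211545-127211574, plus strand, -63 to -34: cttcctgggctcCAGCTGctgcaggcctcc
Cav3, chr6:112459387-112459416, plus strand, -118 to -89: tcccttcttgggCAGCTGctcctgggagga
Des, chr1:75360244-75360273, plus strand, -48 to -19: agagggatcctgCAGCTGtcaggggagggg
The CAGCTG E-box was thus present both in a member that rose from near 0 to the highest level of the list (Mylpf) and in the member with the smallest change on differentiation (Des).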

How the data were processed

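Per the study's methods, the authors trimmed adapters with cutadapt, aligned reads to mm9 with Bowtie2, kept reads with extra Ts not in the genome as PAS reads and deposited raw read counts per PAS and library; every listed site has 5 or more reads. The members and gene lists were chosen with earlier results of these data known. Sites within 24 nt were joined, assigned by strand to genes of GENCODE M1 (gene span plus 4000 nt, up to the next gene) and summed; mitochondrial reads were left out. Positions are as deposited. A pair of M1 entries shares the Tnnc1 end, and its reads were given to ENSMUSG00000021909.6. Counts were tested with edgeR 4.0.16 (quasi-likelihood, filterByExpr, median ratio size factors, Benjamini-Hochberg over all genes, checked on simulated counts): 4 total libraries in one fit, and 8 cytoplasmic libraries with 6 means in the other. The latter has 2 residual degrees of freedom, and a lone AS or RC library is assumed to vary like the NT pairs. CPM divide counts by effective library sizes. Members named with values in every library were the highest and lowest of each role group in MT total RNA, the 3 largest and 3 smallest changes on differentiation and the members not tested. Others, among them Acta1, Actn2, Cav3 and Tcap, were chosen after seeing values. Alternatives were TMM or library-total scaling, DESeq2 1.42.0, no filter, other gene extents, left-out libraries and MT libraries alone. The other libraries of the series were not used here, except 3 untreated NIH3T3 libraries.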

Additional observations from a re-analysis of the deposited data

Results flagged for a closer look

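In 6 members the treated library lay above both NT libraries in one cell state and below both in the other. Des was lower in MT and higher in MB, in AS (mean log2 -0.34 and 0.61, fitted difference -0.95, adjusted p = 0.827 by edgeR) and in RC (-0.28 and 0.64, difference -0.91, adjusted p = 0.544). Tnnc1 was so in RC (-0.58 and 0.61, difference -1.19, adjusted p = 0.521). Actn3 was higher in MT and lower in MB, in AS (0.55 and -0.17, difference 0.72, adjusted p = 0.874) and in RC (0.05 and -0.26, difference 0.31, adjusted p = 0.987), on 7 to 12 reads per MB library. Tnnt1, Tnnt3 and Myh3 were listed in neither MB NT library and had 5 to 7 reads in a treated one, so their fitted differences depend on the prior count: Tnnt1 -5.43 in AS and -6.82 in RC, Tnnt3 -6.00 in AS and Myh3 -6.28 in RC (adjusted p = 0.827, 0.521, 0.827 and 0.521). No difference passed the edgeR interaction test. In 3 untreated NIH3T3 total RNA libraries, a fibroblast line outside the comparisons above, 6 members had reads, summed over the libraries: Tnnc1 96, Tnnt2 74, Actn3 23, Mylpf 17, Myl4 12 and Myoz2 11, together 0.001461 to 0.00324% of assigned reads.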

How the results depend on the processing

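Differentiation in total RNA called 38 members higher under every alternative but 2 (39 without MB_total replicate 2 or 3), and in the cytoplasm 35 to 38. The fit with the replicate number as a block called 38 higher and 0 lower; the labels give MB and MT the same replicate numbers without saying what a number shares, and the deviations of same-numbered libraries had a correlation of 0.089 over 7463 genes. The block could be fitted for total RNA only. The main results called no member in the stress comparisons; the alternatives that called any follow. For arsenite in MT, DESeq2 called 1 lower, leaving out single NT libraries 0 to 1 lower, and MT libraries alone 3 lower and 1 higher. For recovery in MT, library-total scaling and no filter each called 1 lower, DESeq2 3, left-out NT libraries 0 to 10 and MT libraries alone 14. For recovery against arsenite, left-out libraries called 0 to 2 lower and 0 to 1 higher, and MT libraries alone 4 lower and 1 higher. For recovery in MB, DESeq2 called 1 higher, and left-out libraries 0 to 2 higher and 0 to 1 lower. DESeq2 called 1 member lower in the recovery interaction, Tnnt1, which had no listed reads in MB NT. In these fits 0.215 to 7.81% of all genes were called in the same direction. The causes were not tested. The median log2 change over the members was -0.63 in recovery and -0.17 in arsenite against the time-matched NT library, -0.73 in recovery with library-total scaling, which itself moved the median of all genes to -0.21, and -0.42 to -0.63 in recovery and -0.17 to -0.30 in arsenite with single NT libraries left out. The median RED of last-exon pairs was -0.28 to -0.26 in arsenite and -0.13 in recovery under other read minimums and joining distances, but -0.011 and 0.28 for pairs anywhere in the gene, an alternative added after seeing the data, so its sign turned in recovery. No called member changed sign. Depth limits the MB values: 26 members had no listed reads there.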
